A study of Rattus norvegicus with 9 samples.

Results

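Stem cells of the hair follicle rest in the bulge, a niche of the outer root sheath below the sebaceous gland, and in the isthmus between bulge and gland. Bulge cells are woken once in each hair cycle to rebuild the lower follicle and its hair shaft. Between cycles they are held quiescent by transcription factors and by signals from neighbouring cells. A set of 10 genes known from mouse skin as marks of bulge or isthmus stem cells was followed here in whole rat skin. The genes were listed by name with earlier results of these data known. Of these, 9 had a row among the 23480 gene symbols of the count table, which writes them CD34, LHX2, SOX9, NFATC1, TBX1, LGR5, LGR6, LRIG1 and FOXC1, and nephronectin (Npnt), a matrix protein of the bulge to which the arrector pili muscle anchors, was not analysed here. All 9 were among the 14933 genes kept for testing, although Cd34 was kept only through its counts in old skin.

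Skin of male rats of the Wistar strain, an outbred laboratory stock, had been sequenced for polyadenylated RNA. There were 5 young animals of 6 months (young replicates 1 to 5) and 4 old animals of 24 months (old replicates 1 to 4), with no treatment or modified allele in the labels. Neither the body site nor the phase of the hair cycle is stated in the labels. Levels are read counts per M (CPM; M, a count of 1000000) after TMM scaling, with total counts of 17.3 to 20.2 M in young and 20.1 to 34.1 M in old libraries. Levels of different genes are not compared with each other, because gene lengths were not taken into account. In whole tissue, fewer cells of a type and less RNA per cell cannot be told apart.

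In old against young skin 1 of the 9 genes rose and 0 fell. The gene that rose was Cd34, from very few reads. The other 8 (Lhx2, Sox9, Foxc1, Tbx1, Nfatc1, Lgr5, Lgr6 and Lrig1) had overlapping groups and did not pass the test, with log2 fold changes (old over young) from -0.37 to 0.22. The shares over all genes tested were 9.62% for a rise and 4.41% for a fall (quasi-likelihood test of edgeR, Benjamini-Hochberg adjusted p under 0.05). The count of 9 genes is too small to set against those shares. No gene of the set fell at an unadjusted p under 0.05 either, and DESeq2 and limma-voom also called 0 falls and 1 rise. Both were run on the genes kept by the same filter, so their rise of Cd34 is no separate support. The median log2 fold change of the 9 genes was -0.11, beside -0.05 for all genes tested.

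Promoter sequence from RefSeq (rat assembly GRCr8) is shown for Cd34, the gene that rose, and for Lhx2, Foxc1 and Tbx1, transcription factor genes whose levels were highest in the same 2 young libraries (replicates 1 and 4). Of the 10 genes, 7 had a promoter in the table used. Each run is 300 bases, 5′ to 3′ on the gene's own strand. Capitals mark matches, on either strand, to the CCAAT box (CCAAT) and the GC box (GGGCGG). The TATA box (TATAAA) and a TCF/LEF site (CTTTGAT), to which effectors of Wnt signalling bind, were searched for as well. None of the 4 motifs overlaps another in these windows.
Cd34, chr13:109008536-109008835, plus strand: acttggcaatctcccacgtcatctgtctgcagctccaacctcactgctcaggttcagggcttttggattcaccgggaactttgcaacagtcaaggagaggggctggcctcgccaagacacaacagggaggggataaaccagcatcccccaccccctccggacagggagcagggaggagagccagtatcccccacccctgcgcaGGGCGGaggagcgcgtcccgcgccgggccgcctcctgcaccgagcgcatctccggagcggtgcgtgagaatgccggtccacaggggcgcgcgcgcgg
Lhx2, chr3:42535494-42535793, plus strand: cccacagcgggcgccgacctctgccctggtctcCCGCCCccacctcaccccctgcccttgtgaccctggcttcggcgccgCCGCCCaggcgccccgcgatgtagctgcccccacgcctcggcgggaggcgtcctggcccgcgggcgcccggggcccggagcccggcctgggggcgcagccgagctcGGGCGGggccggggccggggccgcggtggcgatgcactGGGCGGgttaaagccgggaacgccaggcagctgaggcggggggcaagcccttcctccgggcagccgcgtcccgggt
Foxc1, chr17:32844051-32844350, minus strand: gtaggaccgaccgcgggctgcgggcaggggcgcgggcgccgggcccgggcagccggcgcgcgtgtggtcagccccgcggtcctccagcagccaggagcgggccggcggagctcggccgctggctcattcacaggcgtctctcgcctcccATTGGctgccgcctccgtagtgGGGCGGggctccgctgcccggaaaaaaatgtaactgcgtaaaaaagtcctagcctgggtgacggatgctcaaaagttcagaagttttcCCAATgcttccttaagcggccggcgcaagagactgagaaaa
Tbx1, chr11:95913360-95913659, plus strand, the first of 2 starts listed: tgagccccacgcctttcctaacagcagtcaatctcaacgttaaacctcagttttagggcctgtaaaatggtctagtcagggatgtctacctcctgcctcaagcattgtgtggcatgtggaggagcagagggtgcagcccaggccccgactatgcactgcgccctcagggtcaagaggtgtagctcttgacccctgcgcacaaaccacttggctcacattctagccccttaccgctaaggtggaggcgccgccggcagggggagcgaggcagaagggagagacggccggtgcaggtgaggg

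The Lhx2 window held 4 GC boxes, the Cd34 and Foxc1 windows 1 each, and the Foxc1 window 2 CCAAT boxes. The Tbx1 window held none of the 4 motifs, and none of the 4 windows held the TATA or TCF/LEF letters. Among 33469 promoters of the same length, 33.1% held the GC box, 37.5% the CCAAT box, 14.2% the TATA box and 3.63% the TCF/LEF letters. These matches are descriptions of the letters and were tied to no level.

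Lhx2 encodes a LIM-homeodomain factor that maintains follicle stem cells in mice. It stood at 52.5, 29.9, 31.1, 56.3 and 27.3 CPM in young replicates 1 to 5 and at 22.3, 18.6, 41.4 and 39.9 CPM in old replicates 1 to 4. Young replicates 1 and 4 were high and old replicates 1 and 2 low, and the other old libraries lay inside the young range. The log2 fold change was -0.37 ± 0.31 (SE; adjusted p = 0.466, edgeR), with a 95% interval of 0.476 to 1.26-fold.

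Sox9 encodes an HMG-box factor required in mice to specify bulge cells and keep their identity. Its level was 47.6, 31.0, 26.6, 41.0 and 25.05 CPM in the young and 32.7, 18.4, 43.8 and 32.2 CPM in the old libraries, in replicate order. Young replicates 1 and 4 were again highest among the young, and old replicate 2 was below every young library. The groups overlapped, with a fitted ratio of old over young of 0.929 (95% interval 0.614 to 1.40; adjusted p = 0.815, edgeR).

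Foxc1 encodes a forkhead factor that restrains the activation of follicle stem cells in mice. It was at 48.0, 33.8, 24.9, 39.7 and 27.1 CPM in young and 36.4, 17.6, 36.4 and 26.9 CPM in old skin. The order of the libraries was close to that of Sox9, and old replicate 2 was again the lowest of the 9. The ratio of old over young was 0.846 (95% interval 0.569 to 1.26; adjusted p = 0.564, edgeR).

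Tbx1 encodes a T-box factor that supports renewal of follicle stem cells in mice. It was at 30.7, 19.3, 17.4, 27.0 and 15.7 CPM in young and 25.2, 15.5, 13.6 and 15.5 CPM in old skin. Old replicate 1 stood apart from the other 3 old libraries, which lay below every young library. The ratio was 0.793 (95% interval 0.537 to 1.17; adjusted p = 0.407, edgeR).

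Nfatc1, the calcineurin-dependent factor that keeps bulge cells quiescent in mice, had a different order of libraries. It was at 30.5, 49.3, 40.4, 41.3 and 54.8 CPM in young and 33.0, 50.9, 50.8 and 67.5 CPM in old skin. Replicate 1 was the lowest library of either group, where Lgr5 and Tbx1 were highest. The ratio was 1.17 (95% interval 0.834 to 1.64; adjusted p = 0.525, edgeR).

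Among the receptors, Lgr5 varied most. It encodes an R-spondin receptor that enhances Wnt signalling and marks cycling cells of the lower bulge and hair germ in mice. It stood at 28.1, 5.82, 9.66, 18.0 and 7.53 CPM in young and at 23.6, 7.45, 7.49 and 4.90 CPM in old skin. The highest library was 4.83 times the lowest in young and 4.82 times in old skin, and 3 libraries (young replicates 1 and 4, old replicate 1) stood above the other 6. The ratio between the ages was 0.788 (adjusted p = 0.721, edgeR). Its 95% interval of 0.326 to 1.91 leaves room for a fall or a rise within that range. Single libraries moved it, from -1.01 on the log2 scale without old replicate 1 to 0.12 without young replicate 1.

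Lgr6, its paralog, which marks cells of the isthmus above the bulge in mice, had another profile. It was at 23.7, 27.4, 38.8, 29.6 and 32.1 CPM in young and 17.9, 14.0, 46.6 and 35.9 CPM in old skin. Old replicates 1 and 2 were below and old replicate 3 above every young library, so that old skin spread more (coefficient of variation 53.6%, n = 4) than young skin (18.7%, n = 5). The ratio of the means was near 1 (fitted 0.944, 95% interval 0.566 to 1.58; adjusted p = 0.887, edgeR). The difference in spread was not tested.

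Lrig1 encodes a membrane protein that dampens ErbB receptor signalling and marks stem cells of the upper isthmus in mice. It was the steadiest gene of the set, at 108, 105, 89.2, 100.1 and 104 CPM in young and 89.6, 82.0, 110.2 and 95.8 CPM in old skin. Its coefficient of variation was 7.19% in young and 12.7% in old skin. The ratio of old over young was 0.932, and the 95% interval of 0.783 to 1.11 leaves room for a change of at most about that size (adjusted p = 0.58, edgeR).

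**Figure D1:**
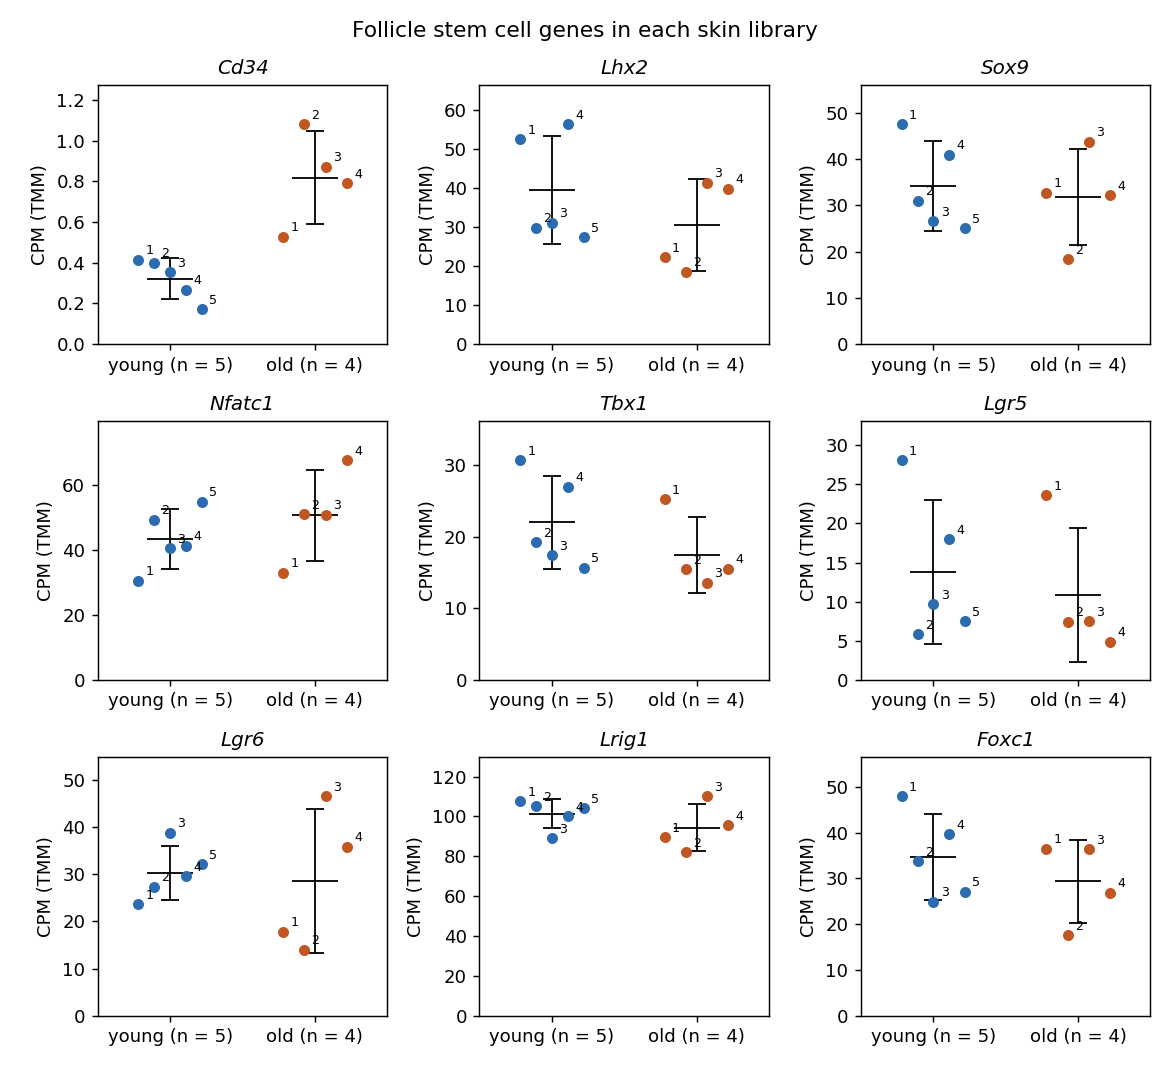
Level of each of the 9 genes (CPM after TMM scaling, vertical axes from 0) in 5 young and 4 old libraries, with replicate numbers beside the points and black bars for mean ± SD. The groups overlap for every gene except Cd34, whose old libraries (0.528 to 1.08 CPM) lie above the young ones (0.171 to 0.414 CPM).

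Cd34 encodes a surface sialomucin that marks bulge cells in mice and also blood vessel endothelium and fibroblast and fat progenitors. Its counts were 8, 7, 6, 5 and 3 reads in the young and 20, 21, 30 and 20 reads in the old libraries, 120 in all. In CPM this was 0.414, 0.399, 0.354, 0.268 and 0.171 in young and 0.528, 1.08, 0.871 and 0.790 in old skin. Every old library was above every young one, as in 10% of all genes tested. The log2 fold change was 1.32 ± 0.33 (SE; adjusted p = 0.0277, edgeR), and the ratio of pooled counts was 2.41 (95% exact binomial interval 1.57 to 3.80, counting error only).

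No young library reached the 10 counts that the filter asks for, so Cd34 was kept through the group where it is high. How much of the transcript the counted feature covers could not be checked, because the annotation is not named. The call was lost without any of 6 libraries (young replicates 3, 4 and 5, old replicates 2, 3 and 4, adjusted p 0.0512 to 0.0598, edgeR). It was also lost with replicate numbers as a block (log2 fold change 1.14, adjusted p = 0.0846, edgeR). The direction held in all 20 alternatives that kept the gene. These reuse the same few reads, so the shared direction is no separate support for the rise.

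**Figure D2:**
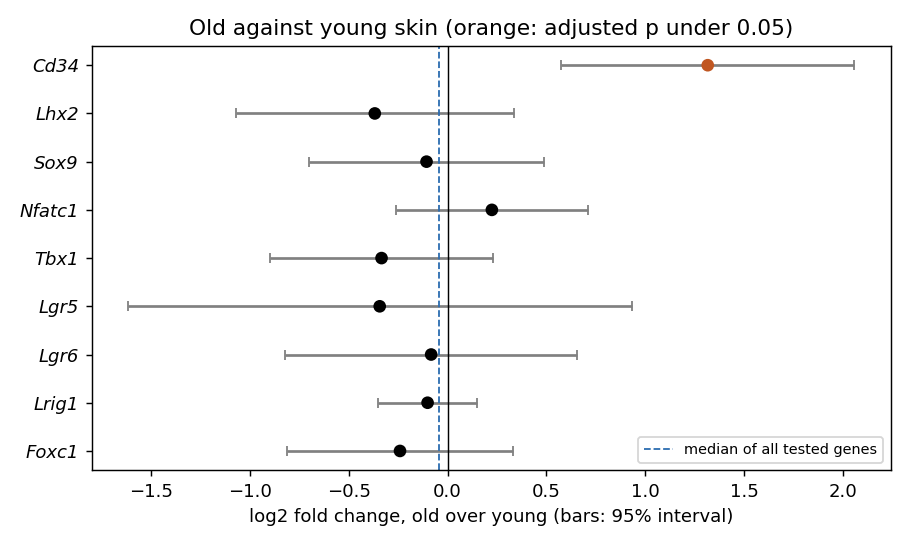
Log2 fold change of old over young skin for the 9 genes (points) with 95% intervals from the edgeR fit (bars), and the median of all genes tested (-0.05, dashed line). The interval lies above 0 for Cd34 and includes 0 for the other 8, widest for Lgr5 and narrowest for Lrig1.

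Other cell types that carry Cd34 moved with age in part. Of 13 tested fibroblast and fat progenitor genes, 10 rose and 0 fell, and their summed level was 1336 to 2108 CPM in young and 3719 to 5448 CPM in old skin. Pdgfra, a growth factor receptor of these cells, went from 36.4 ± 9.76 (SD, n = 5) to 119 ± 8.70 CPM (n = 4; adjusted p = 0.00142, edgeR). The matrix genes Dpt and Mfap5 rose by 1.78 ± 0.20 and 1.59 ± 0.25 and Lsp1, which leukocytes also express, by 1.19 ± 0.17 on the log2 scale. Relative to the mean log2 CPM of this list, Cd34 differed by -0.02 (log2) between the ages and its groups overlapped, from -7.65 to -6.42 in young and -7.48 to -6.81 in old skin. Of 15 blood endothelial genes, 0 passed in either direction, at a median log2 fold change of 0.31 and summed levels of 620 to 1005 CPM in young and 588 to 1390 in old skin. Pecam1, an adhesion molecule of endothelium, stood at 185 ± 33.6 and 276 ± 84.1 CPM (adjusted p = 0.136, edgeR; 0.0138 without old replicate 3). Relative to that list Cd34 was 0.95 higher (log2) in old skin with overlapping groups. Against the basal epidermis list it was 1.41 higher, with every old library above every young one, as in 11.6% of all genes tested. Against the hair shaft and matrix list and the list of other follicle genes it was 1.22 and 1.06 higher, with overlapping groups. The prior count of 2 in these log2 levels shrinks differences of a gene with so few reads. The part of these cells in the Cd34 result was not tested.

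The 2 tested genes whose sample profile lay nearest to that of Cd34 were Ptx3, which encodes the soluble pattern recognition protein pentraxin 3, and Slamf9, a member of the SLAM receptor family. Their root mean square difference from Cd34 was 0.27 and 0.28 on the log2 scale over 9 libraries, each gene centred on its own mean. Such nearness can arise from few points and says nothing of a shared source.

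Other genes of the follicle's outer root sheath and stem cell compartments were read from a list of 38, all of which were tested. Of these, 2 rose, 1 fell and 35 did not pass, at a median log2 fold change of 0.02. Krt15, a keratin of bulge and basal cells, stood at 1560 to 2813 CPM in young and 1229 to 2988 CPM in old skin (log2 fold change -0.23 ± 0.28, adjusted p = 0.614, edgeR). Fst, which encodes the activin antagonist follistatin, rose from 28.6 ± 3.63 to 42.3 ± 3.16 CPM, with no overlap (adjusted p = 0.0103). Barx2, a homeobox gene, fell from 109 ± 13.4 to 68.9 ± 12.1 CPM (adjusted p = 0.0172), a call lost without young replicate 4 (0.053) and with library totals alone as the scaling (0.065). Tcf7l2, which encodes a Wnt effector, rose from 17.0 ± 2.84 to 25.7 ± 4.57 CPM (adjusted p = 0.0414), and this call was lost without any of 6 libraries (young replicates 2, 3 and 5, old replicates 1, 3 and 4; adjusted p up to 0.0953) and with the muscle score as covariate (0.0675).

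The signalling partners of the set changed in few places. Of 9 genes of the Lgr and R-spondin pathway, 1 fell and 0 rose. It was Rspo3, which encodes a secreted ligand of Lgr receptors that dermal papilla cells also make. Rspo3 was at 2.53, 2.57, 3.59, 2.62 and 1.54 CPM in young and 0.370, 1.29, 0.581 and 0.395 CPM in old skin. All 4 old libraries were below all 5 young ones, as in 6.51% of all genes tested (log2 fold change -2.00 ± 0.41, adjusted p = 0.0119, edgeR), and the call held in all 21 alternatives. Rspo3 was kept for testing through young skin, since only 2 old libraries reached the filter's floor of 0.497 CPM. The alternatives used the same reads, so they are no separate support for the fall. The third receptor, Lgr4, was at 47.0 ± 15.04 and 52.0 ± 7.68 CPM (adjusted p = 0.692). The ligases that remove Wnt receptors and are cleared by R-spondin signalling did not pass. Rnf43 was at 8.41 ± 0.834 and 5.74 ± 1.25 CPM, with every old library below every young one, as in 6.51% of all genes tested. Its adjusted p was 0.0736 with edgeR, 0.0192 with DESeq2 and 0.0324 with the muscle score as covariate in edgeR. Znrf3 was at 27.8 ± 6.35 and 24.8 ± 4.00 CPM, with overlapping groups (adjusted p = 0.595, edgeR).

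Of 12 calcineurin and NFAT genes, 1 rose and 0 fell, at a median log2 fold change of 0.03. It was Nfatc4, from 7.70 ± 1.63 to 11.6 ± 0.862 CPM (adjusted p = 0.0424), and the call was lost without any of 7 libraries (all but young replicate 4 and old replicate 3; adjusted p up to 0.0931), and also with no filter (0.0564), the replicate block (0.0753) or the muscle score as covariate (0.0526). Of 12 genes of the Lrig family, the ErbB receptors and their ligands, 1 fell and 0 rose. This was Erbb2, a receptor tyrosine kinase, from 49.8 ± 5.19 to 33.6 ± 7.12 CPM (adjusted p = 0.0379). Its call was lost without any of 6 libraries (all but young replicate 2 and old replicates 2 and 3; adjusted p up to 0.137) and with library totals alone (0.261) or upper quartile scaling (0.0584). The paralogs Lrig2 and Lrig3 had log2 fold changes of 0.04 ± 0.17 and 0.03 ± 0.18 (adjusted p = 0.896 and 0.936). Of 11 genes of the arrector pili muscle and the nephronectin receptor, 0 passed in either direction. Itga8, the receptor's alpha chain, stood at 9.80 ± 2.18 and 14.0 ± 8.09 CPM (adjusted p = 0.364).

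The dermal papilla, the mesenchymal cluster that signals to follicle stem cells, gave 2 rises and 2 falls among 15 tested genes. Fgf7 and Fgf10, which encode growth factors of mesenchyme that act on epithelium, rose from 18.0 ± 3.16 to 35.4 ± 5.11 CPM and from 0.493 ± 0.207 to 1.37 ± 0.382 CPM (adjusted p = 0.0043 and 0.0214). Fgf10 was kept for testing through old skin, where it is high: 4 old and 2 young libraries reached that floor, and a floor of 1 CPM in 4 samples removes it. The Fgf10 call was lost without young replicate 3 (0.0556) and with the replicate block (0.0771). Prom1, which encodes a membrane glycoprotein found on papilla cells and on epithelia, fell from 52.6 ± 32.2 to 5.71 ± 3.91 CPM (adjusted p = 0.0048); the other that fell was Rspo3. Of 12 genes of the basal epidermis 1 fell. It was the keratin gene Krt14, from 3542 ± 908 to 1813 ± 353 CPM (adjusted p = 0.0223; lost on leaving out young replicate 2, young replicate 4 or old replicate 4, up to 0.0878, with library totals alone, 0.0633, and with the replicate block, 0.0537). Its partner Krt5 had non-overlapping groups at 3804 ± 906 and 2369 ± 571 CPM but did not pass (adjusted p = 0.0823, edgeR; 0.0155 with DESeq2 and 0.0156 with the muscle score as covariate).

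Read against the basal epidermis list instead of the library, the 8 follicle genes other than Cd34 still overlapped between the ages, with differences of -0.13 to 0.46 on the log2 scale (old minus young); on that scale 11.6% of all genes tested lay higher in every old library and 0.984% lower. Read against the fibroblast and fat progenitor list, whose own level rose, Lhx2, Sox9, Tbx1, Lgr6, Lrig1 and Foxc1 were lower in every old library, by 1.27 to 1.55 on the log2 scale. So were 70.4% of all genes tested, so this count of 6 is no result about the follicle genes, and 0.904% were higher in every old library. Nfatc1 and Lgr5 overlapped against that list as well. Neither comparison was tested.

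**Figure D3:**
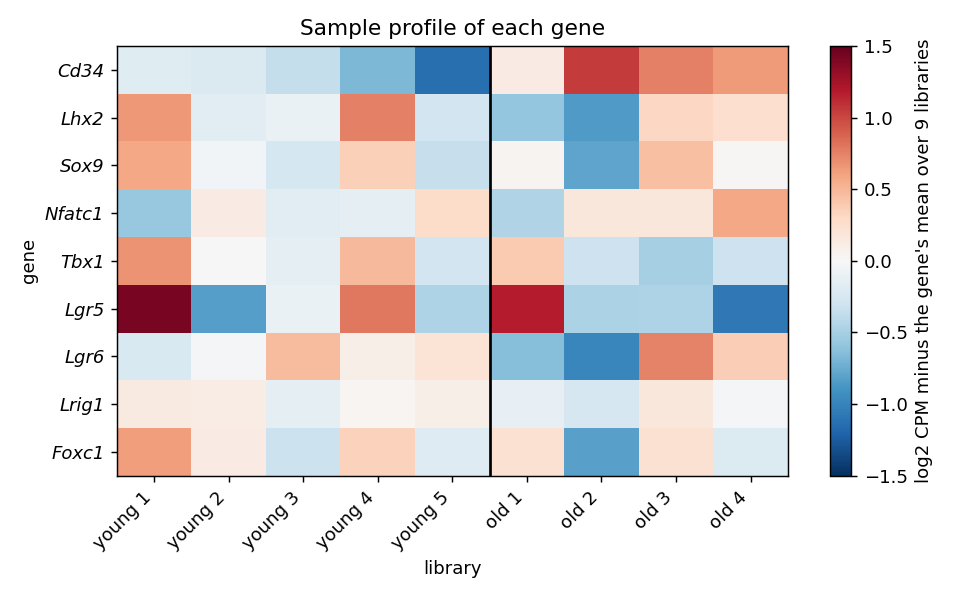
Log2 CPM of each gene in each library, minus the gene's mean over the 9 libraries (colour, white at 0), with young libraries left and old libraries right of the black line. Lhx2, Sox9, Foxc1, Tbx1 and Lgr5 are high in young replicates 1 and 4, Nfatc1 is low in young replicate 1 and old replicate 1, and Lrig1 is near its mean throughout.

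Within each age the libraries differed far more in hair shaft genes than in follicle stem cell genes. The summed level of 23 hair shaft and matrix genes was 30013, 340.5, 4110, 10836 and 307 CPM in young replicates 1 to 5 and 12148, 4326, 326 and 453 CPM in old replicates 1 to 4. Young replicates 1 and 4 and old replicate 1 were the 3 highest and young replicates 2 and 5 and old replicates 3 and 4 the 4 lowest, so that both ages held libraries of each kind. In the test of age, 0 of the 23 rose or fell (median log2 fold change -0.99). Of the 9 follicle genes, young replicate 1 was the highest young library in 6 and the lowest in 2. Old replicate 1, with the highest hair shaft sum of its age, was the highest old library in 3 and the lowest in 2, and old replicate 3, with the lowest sum, was the highest in 4 and the lowest in 1.

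The slope of each gene on the hair score (the mean log2 CPM of those 23 genes) was fitted with age in the model over all 14933 genes, a test chosen after the data were seen. It passed in 4.17% of the genes for a level that was higher with the score and in 0.368% for one that was lower. Of the 9 follicle genes, 1 was higher with the score and 0 were lower (2 and 1 at an unadjusted p under 0.05; limma-voom also called 1 and 0). Lgr5 changed by 0.24 ± 0.05 log2 units per log2 unit of the score (95% interval 0.118 to 0.356, adjusted p = 0.0372, edgeR). The slope of Lgr5 stayed positive at 0.19 to 0.28 in 12 alternatives, but its call was lost without any of 6 libraries (young replicates 1, 2, 4 and 5, old replicates 1 and 4; adjusted p 0.0588 to 0.225).

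Tbx1 had a slope of 0.10 ± 0.03 (adjusted p = 0.0579), which passed without young replicate 3 (0.0325) or old replicate 2 (0.0352). Nfatc1 and Lgr6 had slopes of -0.09 ± 0.03 (adjusted p = 0.112) and -0.10 ± 0.05 (adjusted p = 0.332). The other 5 had slopes of -0.02 to 0.04, with adjusted p from 0.605 to 0.944. Among genes of the hair matrix that make up the score, Lef1, the Wnt effector of matrix cells, had a slope of 0.64 ± 0.06. Of 12 genes of cell division, which are no part of the score, 10 were higher with it, and Mki67 had a slope of 0.15 ± 0.03 (adjusted p = 0.0217). Rspo3 had a slope of 0.06 ± 0.07 (adjusted p = 0.652). With the hair score as covariate, the effect of age on Lgr5 was -0.27 on the log2 scale (adjusted p = 0.606, edgeR). That on Cd34 was 1.32 (adjusted p = 0.0302, edgeR). Cd34 was again kept only through old skin, where it is high, so its value here is no separate support for the rise.

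**Figure D4:**
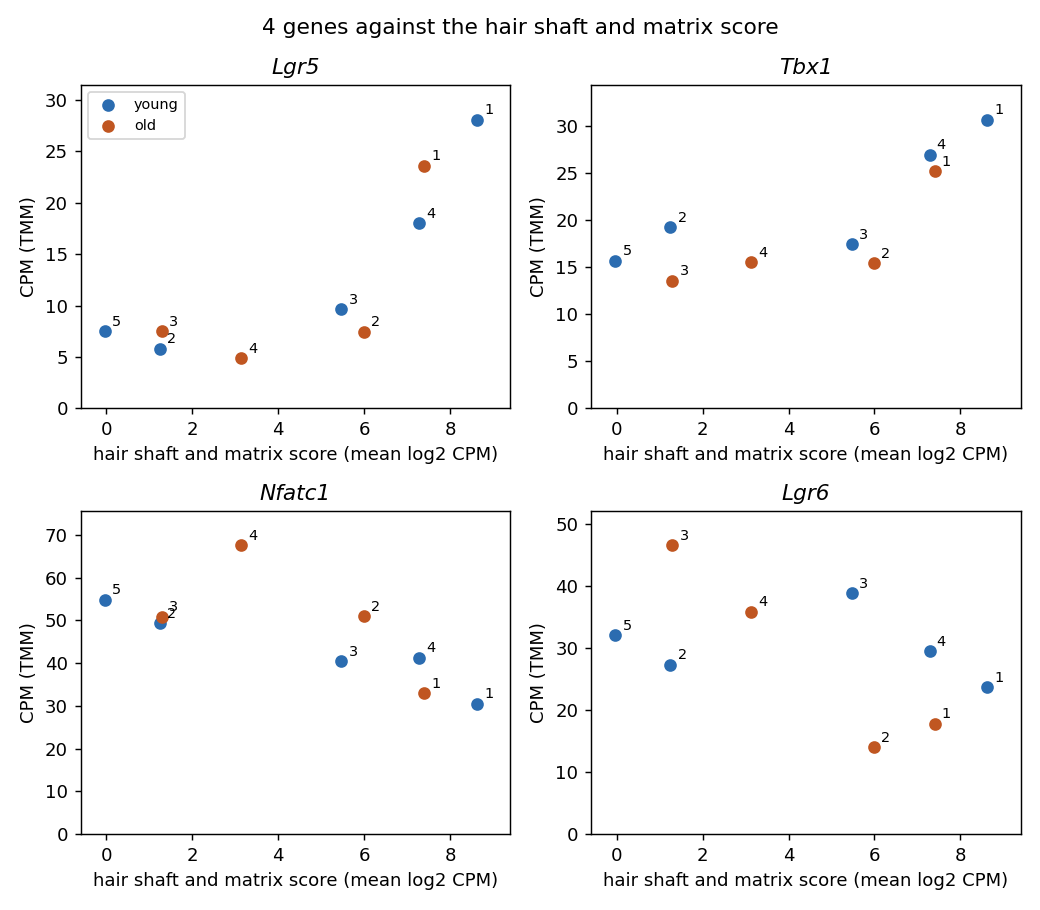
Level of Lgr5, Tbx1, Nfatc1 and Lgr6 (CPM, vertical axes from 0) against the hair shaft and matrix score (mean log2 CPM of 23 genes) in 5 young (blue) and 4 old (orange) libraries, with replicate numbers. Young replicates 1 and 4 and old replicate 1 have the 3 highest scores and the 3 highest levels of Lgr5 and Tbx1, while old replicate 2 has a score of 6.00 and an Lgr5 level of 7.45 CPM.

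Muscle and epidermis content also varied between libraries. The summed level of 15 skeletal muscle genes was 55898 to 140336 CPM in young and 19624 to 112173 CPM in old skin. With age in the model, 0 of the 9 follicle genes passed for a slope on the muscle score (0 higher and 2 lower at an unadjusted p under 0.05; limma-voom also 0), beside 7.75% of all genes higher and 1.40% lower. The 2 were Sox9 (-0.43 ± 0.12, adjusted p = 0.0707) and Foxc1 (-0.39 ± 0.13, adjusted p = 0.108), which both passed without young replicate 3 (0.0431 and 0.0395) and with library totals alone (0.0241 and 0.032). Sox9 also passed without old replicate 4 (0.0282).

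For the basal epidermis score the count was 0 as well (1 higher at an unadjusted p under 0.05; limma-voom also 0), beside 0.77% of all genes higher and 0.1% lower. The gene was Lgr6, with a slope of 1.41 ± 0.29 (adjusted p = 0.0596), which passed without old replicate 1, with library totals alone and with the hair score in the model too (adjusted p down to 0.0249). The score was 7.64 in old replicate 2, where Lgr6 was lowest, and 8.97 and 8.71 in young replicate 3 and old replicate 3, where it was highest in its group.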

How the data were processed

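Skin RNA of 9 rats was analysed from the table of raw read counts per gene symbol that the authors deposited, 1 column per animal, matched to samples by title. RNA was column-purified and made into polyadenylated TruSeq v2 libraries, as the labels' protocols say, with a kit that keeps no strand, so a gene's reads may include those of an overlapping or antisense partner. BWA is named in the submitters' processing notes. Genome build, annotation and counting rule were not given in the sources used here.

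Genes passing edgeR's filterByExpr (minimum count 10, minimum total 15) were fitted over all 9 samples with glmQLFit and glmQLFTest (edgeR 4.0.16, R 4.3.3), TMM scaling, no covariate and Benjamini-Hochberg adjustment at 0.05 over all genes. The SE, which is approximate, was derived from the fold change and its F statistic. Scores are mean log2 CPM (prior count 2). Slopes on scores, and the hair score as covariate, were added after the data were seen. On simulated counts with 200 changed genes (14759 tested), 34.0% of 2-fold and 88.7% of 4-fold changes were recovered, with 5 false calls among 124. In the data 1437 genes rose and 659 fell, far more than were changed in the simulation. The adjusted threshold therefore differs, and these rates need not hold for the data.

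The genes and lists were chosen with earlier results of these data known. Named were the 9 genes, up to 4 called genes per list with the smallest adjusted p, and 10 partner genes whatever their values; the slopes of Mki67, Lef1 and Rspo3 were picked after their values were seen. Lists of sebaceous gland, fat, immune, lymphatic, satellite, Schwann and pigment cells were read as marker checks. No 2 libraries of an age were repeats: the smallest chi-square per degree of freedom between their counts was 32.2. The labels do not say that replicate numbers pair animals, so samples were not paired; that the samples are separate animals is taken from the series' design text. Alternatives used DESeq2 1.42.0, limma 3.58.1, other scalings, filters and covariates, thinned counts, a replicate block and leaving out each library. Figures used matplotlib 3.10.9.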

Additional observations from a re-analysis of the deposited data

Results flagged for a closer look

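Old replicate 1 stood far from the other 3 old libraries in 2 of the 9 genes. It was at 25.2 CPM for Tbx1, where the others were at 13.6 to 15.5, and at 23.6 CPM for Lgr5, where the others were at 4.90 to 7.49. These were the only such samples in 18 sets of 4 or 5 libraries (9 genes in each age), where chance gives about 1 in 20 sets. Both come from the same library and are not independent, so 2 of 18 is not read as more than chance gives. The same library had the highest hair shaft and matrix score of the old group, 7.40 against 1.30 to 6.00, and its part in these levels was not tested. Without old replicate 1 the log2 fold change of Lgr5 between the ages was -1.01 and that of Tbx1 -0.52, and neither passed (edgeR, adjusted p = 0.229 and 0.176).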

How the results depend on the processing

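Over 21 alternatives the number of follicle genes that fell was 0, and the number that rose was 1 except where Cd34 lost its call or was filtered out. It was 0 with a CPM of at least 1 in 4 samples required, which removes Cd34, and 0 with the replicate block; leaving out single libraries gave 0 to 1. Over all genes, 1437 rose and 659 fell. The number that fell was 1280 with DESeq2, 312 with library totals alone, 994 with the muscle score and 1024 with the hair score as covariate (chosen after seeing the data), and 236 to 786 when single libraries were left out. With library totals alone the median over all genes was 0.11 in place of -0.05 (log2), and rises were 86.2% of calls in place of 68.6%.

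None of the 8 genes without a call gained one in any of the 21 alternatives, and the log2 fold changes of Lhx2, Tbx1, Foxc1 and Nfatc1 kept their sign. With library totals alone the sign turned for Sox9 (0.061), Lgr6 (0.10) and Lrig1 (0.068). Left-out libraries turned it for Sox9 (-0.27 to 0.083; above 0 without young replicate 1 or 4 or old replicate 2), Lgr5 (-1.01 to 0.12; above 0 without young replicate 1) and Lgr6 (-0.40 to 0.14; above 0 without young replicate 3 or old replicate 1 or 2). Among partner genes it turned with the muscle score as covariate for Lgr4 (-0.031), Lrig2 (-0.073) and Lrig3 (-0.16), with the replicate block for Lrig3 (-0.036), and with left-out libraries for Lrig2 (-0.068 to 0.14) and Lrig3 (-0.038 to 0.18). The direction of the 20 called markers of other cell types in the named set held in all 21 alternatives.

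For slopes, all chosen after seeing the data, the number of follicle genes higher with the hair score was 0 to 2 when single libraries were left out. The number lower with the muscle score was 2 with library totals alone and 0 to 2 without single libraries. The number higher with the basal epidermis score was 1 with library totals alone, 1 with the hair score in the model too and 0 to 1 without single libraries.

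Replicate numbers were not taken as pairs. Deviations from the group means correlated across genes at 0.67, -0.07, 0.07 and -0.47 for replicates 1 to 4. With the replicate block (8 samples), 1158 genes rose and 646 fell. Where a call or a sign changed, the cause was not tested, also where fewer samples entered the fit. Cd34 rests on 3 to 30 reads per library. Its call held with counts thinned to the smallest library (log2 fold change 1.48, adjusted p = 0.0135, edgeR). Thinning can only lower counts, so Cd34 entered that fit again only through old skin, where it is high. The thinned result is therefore no separate support for the rise.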

Other observations

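Marker lists of other cell types gave the following counts in old against young skin. Of 10 fat cell genes, 9 rose and 0 fell, with summed levels of 824 to 1539 CPM in young and 3924 to 9070 CPM in old skin. Adipoq, the gene of the fat hormone adiponectin, went from 43.5 ± 27.3 (SD, n = 5) to 902 ± 434 CPM (n = 4), and Cfd, Lpl and Cidec rose as well (log2 fold changes of 2.93 to 3.91). Of 11 immune cell genes, 10 rose and 0 fell, at 102 to 182 and 331 to 631 CPM, led by Cd14 (from 8.67 ± 1.45 to 24.2 ± 0.938 CPM), Laptm5, Cd4 and Aif1. Of 13 sebaceous gland genes, 5 fell and 2 rose, at 3467 to 7236 and 1638 to 2775 CPM. The 2 that rose were Pparg and Cidec, and Cidec is also on the list of fat cell genes. The 6 that did not pass went both ways. Soat1, Cidea, Plin2 and Awat2 had log2 fold changes of -1.28, -0.74, -0.25 and -0.16, and Mgst1 and Dgat2l6 of 0.21 and 1.42. Scd1, Elovl3 and Fasn had the largest young means in that sum, so it does not stand for every gene of the list. Scd1, a desaturase gene, fell from 1416 ± 475 to 318 ± 78.5 CPM, and Elovl3 and Fasn fell by 2.37 and 1.09 on the log2 scale; the Fasn call was lost without old replicate 4 (adjusted p = 0.0664) and with the replicate block (0.078). Of 7 lymphatic endothelial genes, 1 rose (Pdpn, which epithelium and fibroblasts also carry, from 22.5 ± 3.69 to 43.0 ± 9.27 CPM) and 0 fell. Of 4 muscle satellite cell genes, 0 passed in either direction, and of 15 skeletal muscle genes 1 fell (Mybpc1, adjusted p = 0.0442, edgeR; lost without any library but old replicate 2, up to 0.105). Of 11 Schwann and pigment cell genes, 1 rose (S100b, which fat cells also express, from 19.9 ± 12.7 to 267 ± 139 CPM) and 2 fell (Tyrp1, from 36.7 ± 48.2 to 0.0557 ± 0.0486 CPM, and Dct, from 52.2 ± 67.1 to 1.28 ± 0.691 CPM). Tyrp1 was kept for testing through young skin, where it is high, since 0 old libraries reached the filter's floor. Young replicates 1 and 4 were at 110 and 62.1 CPM for Tyrp1 and 154 and 87.9 CPM for Dct. The other young libraries were at 1.77 to 7.70 and 4.33 to 8.96 CPM. Neither Tyrp1 nor Dct passed with limma-voom (adjusted p = 0.105 and 0.127), and Dct did not pass without old replicate 3 (0.0576) or 4 (0.0712). Pmel, Tyr and Mlana did not pass and had overlapping groups (adjusted p = 0.0651, 0.0579 and 0.462, edgeR). Of 12 cell division genes, 0 passed in either direction, with all 12 log2 fold changes below 0 and a median of -0.72. The fat, immune, and fibroblast and fat progenitor sums were higher, and the sebaceous gland sum lower, in every old library.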
